A study of Mus musculus with 24 samples.

Results

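Interferon-stimulated genes and genes of antigen presentation were followed in primary mouse vascular smooth muscle cells (VSMCs) loaded with cholesterol in vitro. The set held 38 named genes of the 24453 in the RNA table, chosen by symbol, and where a symbol had several transcript rows the row of highest mean RPKM was used. A mean of at least 10 sequence tags over the 14 libraries was reached by 29 of the 38, among 12443 genes tested in all, and the other 9 are given by their tags.

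VSMCs came from the thoracic aortas of C57BL/6 mice 8 to 10 weeks old and were used below passage 5. Cholesterol-loaded cells received Chol:MβCD, a complex of cholesterol with the sugar ring methyl-β-cyclodextrin, at 20 µg/ml in 0.2% BSA for 24 h (3 libraries) or 48 h (3 libraries). Control cells received 0.2% BSA alone for 0 h (3 libraries), 24 h (3 libraries) or 48 h (2 libraries, replicates 2 and 3). No control received the cyclodextrin, so that effects of cholesterol and of its carrier cannot be told apart. Replicates are described as biological, with no statement that they came from separate animals, and p-values measure the spread between these cultures. H3K27ac ChIP-seq, which marks active promoters and enhancers, had 1 library per condition.

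Type I interferons are secreted proteins that cells release when they sense viral or misplaced nucleic acid. They bind the receptor Ifnar1/Ifnar2, whose kinases phosphorylate Stat2, which joins Irf9 in a complex that binds the interferon-stimulated response element (ISRE) in the promoters of antiviral genes. Interferons also raise the proteasome subunits, peptide transporters and class I chains by which a cell displays peptides to T cells.

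Promoter sequences of RefSeq (GRCm38.p6, 250 bases before to 50 after the start) were found for 28 of the 38 members. The letters GAAANNGAAA, searched on both strands as the core of an ISRE, occurred in 11 of these 28 promoters (39.3%), against 3.39% of the 17323 promoters of all genes and 2.81% of the 9475 promoters of genes tested. The letters TTCNNNGAA, the core of the gamma-activated sequence found in promoters that respond to interferon gamma, occurred in 7 of 28 (25.0%) and in 8.1% of all promoters. Short stretches around the matches upstream of the start follow for 7 members, because these are genes whose RNA is described further on, 6 that rose after 48 h of cholesterol and B2m, which did not pass the test. Each runs 5′ to 3′ on the gene's strand, and capitals mark the matched letters, which appear as TTTCNNTTTC where the match lies on the other strand. Where 2 or 3 matches overlap, the capitals merge into 1 run.
Ifit1: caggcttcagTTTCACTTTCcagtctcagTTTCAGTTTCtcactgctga
Ifit3: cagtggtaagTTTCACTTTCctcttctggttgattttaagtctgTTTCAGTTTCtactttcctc
Isg15: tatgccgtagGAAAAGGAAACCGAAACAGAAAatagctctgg
Bst2: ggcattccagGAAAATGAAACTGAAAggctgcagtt
Stat2: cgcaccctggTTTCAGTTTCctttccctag
Gbp2: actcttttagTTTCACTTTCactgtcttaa
B2m: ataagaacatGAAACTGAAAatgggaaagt
The stretches lie at chr19:34640775-34640823 (Ifit1, plus strand), chr19:34583363-34583426 (Ifit3, plus), chr4:156200865-156200906 (Isg15, minus), chr8:71537577-71537612 (Bst2, minus), chr10:128270266-128270295 (Stat2, plus), chr3:142620594-142620623 (Gbp2, plus) and chr2:122147538-122147567 (B2m, plus). Ifit1 and Ifit3, neighbours on chromosome 19, each held 2 separate matches. Isg15 held 3 overlapping matches that began 78 to 66 bases before its start.

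After 48 h of cholesterol loading, 20 of the 29 members tested were higher than in control cells and 0 were lower, where 12.0% of all genes tested were higher and 13.0% lower (limma on log2(normalized RPKM + 1), Benjamini-Hochberg adjusted p under 0.05). The median log2 fold change of the 29 members was 0.58, and that of all genes tested was near 0. After 24 h, 0 members were called higher and 0 lower, where 2.56% and 2.95% of all genes were, with 1 member higher and 0 lower at an unadjusted p under 0.05, and the members' median was -0.13. For each of the 29 members the log2 fold change was greater at 48 h than at 24 h. The difference passed the test for 7 of them (2.31% of all genes), namely Ifit1, Ifit2, Ifit3, Stat2, Dhx58, Xaf1 and Rtp4, and for 0 in the other direction (3.15%). All 3 loaded cultures lay above both controls for 24 of the 29 members at 48 h (21.8% of all genes) and below them for 0 (23.8%). At 24 h the loaded cultures lay above all 3 controls for 1 member (17.9%) and below them for 7 (21.2%). The tag minimum was a mean over all 14 libraries. Rtp4, Mx2 and Oasl2 reached it only through the loaded libraries at 48 h. They held 212, 195 and 275 tags there, against 9, 9 and 7 in the control libraries at 48 h. Their calls in loaded cells at 48 h, and their places among the 24 members above both controls, are therefore not independent of the filter. With no filter, Rtp4 and Mx2 were called higher at 48 h and Oasl2 was not. In bulk RNA, more responding cells and more RNA per cell cannot be told apart.

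These counts depend on single cultures. At 48 h the count of 20 was 5 without replicate 2 of the control cells at 48 h and 13 without replicate 3. It was 14, 16 and 24 without replicates 1, 2 and 3 of the cholesterol-loaded cells at 48 h. Fitted on the libraries at 48 h alone, 4 members were called. Of the 12443 genes tested, 1497 were called higher at 48 h in the main fit. That number was 1034 and 949 without control replicates 2 and 3 at 48 h. It was 1652, 1449 and 1438 without replicates 1, 2 and 3 of the loaded cells at 48 h. With the libraries at 48 h alone it was 582. Ifit1, Ifit2 and Ifit3 were called higher at 48 h under all 23 alternatives run, and Rtp4 under 22.

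**Figure D1:**
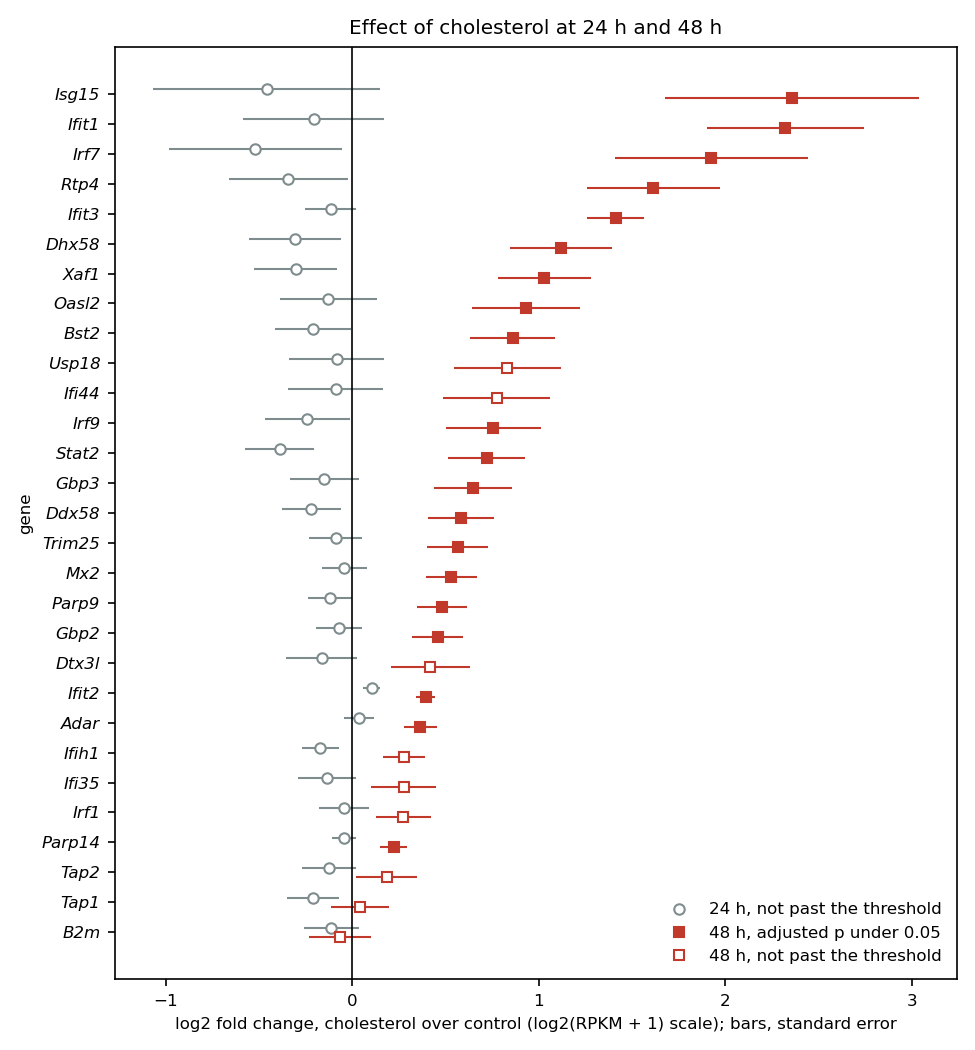
Log2 fold change of cholesterol over control (log2(normalized RPKM + 1) scale, bars are the standard error of limma) for the 29 members tested, at 24 h (grey circles) and 48 h (red squares), filled where the adjusted p was under 0.05. Of the 29 squares 20 are filled and none of the circles is, and 27 of the circles lie left of 0.

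Effector genes of the Ifit family, whose proteins bind foreign RNA or the translation machinery, had the most stable calls. Ifit1 had 19.2, 8.91 and 5.33 RPKM in replicates 1 to 3 of cholesterol-loaded cells at 48 h, against 0.703 and 1.75 RPKM in control cells. All 3 cholesterol libraries lay above both controls, and the lowest still lay 4.35 times over the control mean. The means were 11.1 ± 7.21 RPKM (SD, n = 3) in loaded and 1.23 ± 0.74 RPKM (SD, n = 2) in control cells, a ratio of 9.1 and a log2 fold change of 2.32 (SE 0.42, limma adjusted p = 0.00161). At 24 h Ifit1 had 0.724, 0.861 and 0.599 RPKM in loaded cells, against 0.476, 2.36 and 0.595 RPKM in control cells, where only replicate 2 of the controls stood apart.

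Ifit3 was the member with the smallest adjusted p at 48 h. It had 29.5, 19.3 and 20.1 RPKM in loaded cells, against 7.19 and 8.53 RPKM in control cells (log2 fold change 1.41, SE 0.15, limma adjusted p = 4.1e-05). The groups did not overlap, at a ratio of 2.92. At 24 h its 5.67, 6.48 and 5.92 RPKM in loaded cells overlapped 6.03, 7.48 and 6.34 RPKM in control cells. Reads of Ifit3 and of its near-identical copy Ifit3b may be divided between them, and both levels are uncertain for that reason. Ifit2 rose little but with a narrow spread, at 3.11, 3.41 and 3.09 RPKM in loaded cells and 2.18 and 2.21 RPKM in control cells at 48 h (log2 fold change 0.40, SE 0.05, limma adjusted p = 0.000159).

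Other effectors called at 48 h included Rtp4, Xaf1, Bst2, Gbp2 and Gbp3. Rtp4, a receptor transport protein that restrains RNA viruses, had 6.52, 2.3 and 1.39 RPKM in loaded cells at 48 h, against 0.238 and 0.314 RPKM in control cells (ratio 12.3, log2 fold change 1.61, SE 0.36, limma adjusted p = 0.00568). Xaf1, a pro-apoptotic antagonist of XIAP, had 3.72, 2.74 and 1.63 RPKM in loaded cells and 0.636 and 0.893 RPKM in control cells (ratio 3.53, adjusted p = 0.00964). In both genes the groups were separate and the order of the loaded cultures was replicate 1, then 2, then 3. The membrane protein tetherin (Bst2), which holds budding virus at the cell surface, rose 1.95-fold, and the guanylate-binding GTPase Gbp2 2.2-fold. The related Gbp3 had 1.73, 0.695 and 0.405 RPKM in loaded cells, against 0.0608 and 0.34 RPKM in control cells, and rose 4.71-fold. It was called under 13 of the 23 alternatives. Ifi35 (1.29-fold, adjusted p = 0.28) and Ifi44 (11.4-fold, adjusted p = 0.0663) did not pass the test. Ifi44 ranged from 0.255 to 2.32 RPKM among the 3 loaded cultures. Rsad2 (viperin), which makes an antiviral nucleotide, and its neighbour Cmpk2, a mitochondrial nucleotide kinase, were below the tag minimum, with 20 and 16 tags summed over the loaded libraries at 48 h and 2 and 0 tags over the control libraries.

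Isg15, a ubiquitin-like protein that is attached to new proteins during the antiviral response, varied widely between cultures. It had 41.5, 13.5 and 9.43 RPKM in loaded cells at 48 h, against 1.1 and 5.24 RPKM in control cells. The loaded cultures were higher than both controls, but the controls themselves differed 4.75-fold, and the means were 21.5 ± 17.5 (SD, n = 3) and 3.17 ± 2.92 RPKM (SD, n = 2; ratio 6.77, log2 fold change 2.36, SE 0.68, limma adjusted p = 0.0234). At 24 h it had 2.23, 1.84 and 2.52 RPKM in loaded cells, against 1.98, 10.9 and 1.36 RPKM in control cells. Usp18, which removes Isg15 from proteins and blocks the receptor, had 2.49, 0.931 and 0.263 RPKM in loaded cells at 48 h and 0.0721 and 0.227 RPKM in control cells, a ratio of 8.2 with an adjusted p of 0.0512 in limma.

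**Figure D2:**
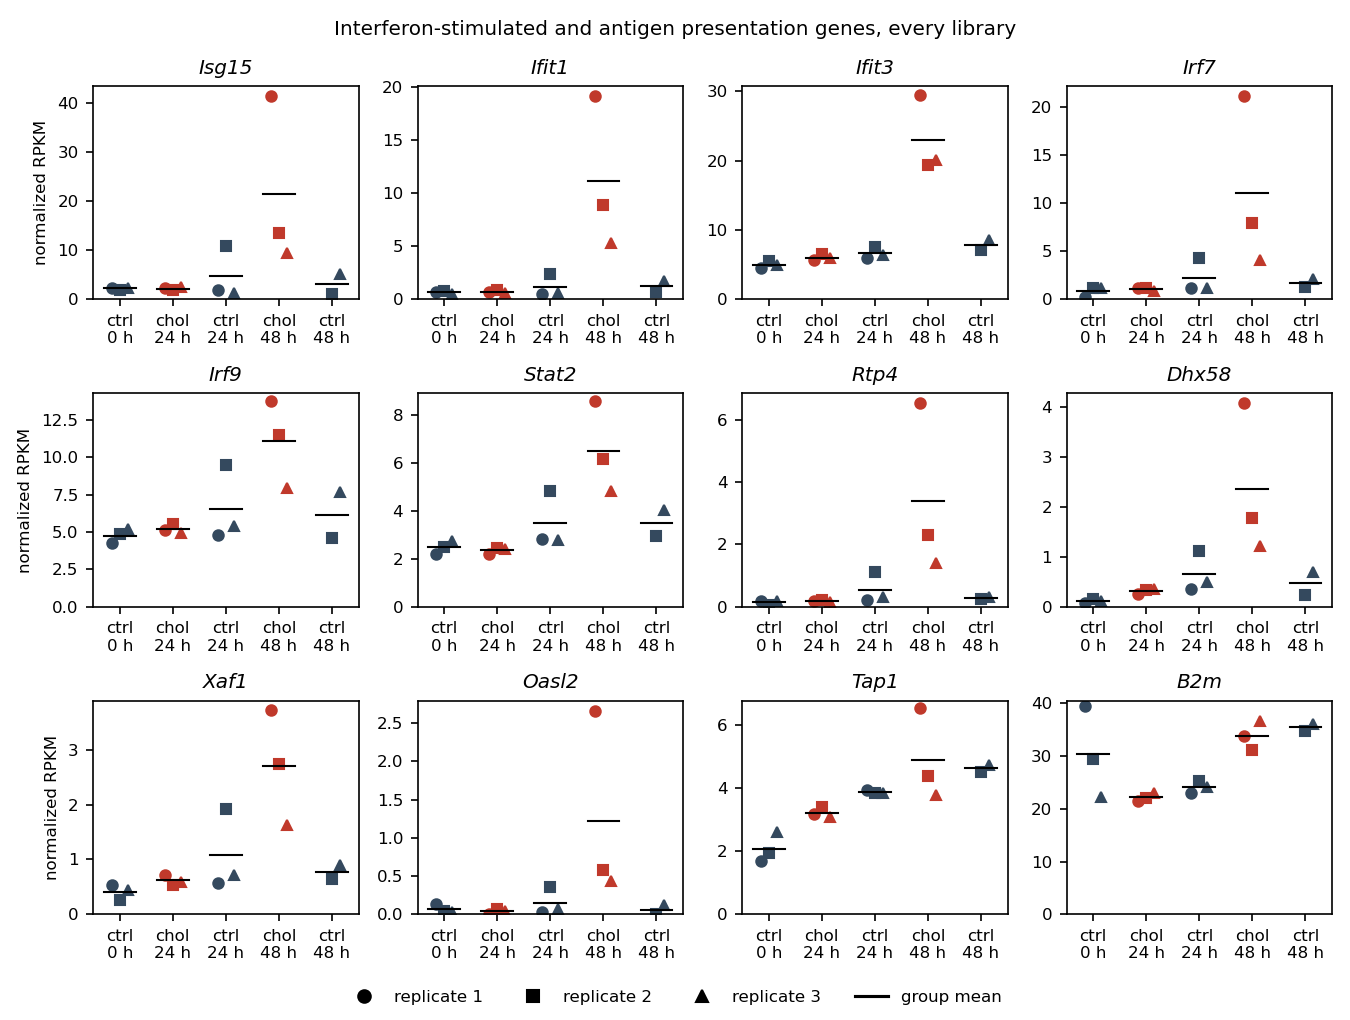
Normalized RPKM of 12 members in each of the 14 libraries, with groups in order of time and cholesterol-loaded cells (red) left of control cells (dark) at 24 h and 48 h. Symbols give the replicate number and lines the group mean. Replicate 1 of the loaded cells at 48 h is the highest library for all genes shown but B2m, and replicate 2 of the control cells at 24 h stands over its group for most of them.

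Of the 4 transcription factors in the set, 3 rose at 48 h. Irf7, the factor that amplifies interferon production, had 21.1, 7.91 and 4.14 RPKM in loaded cells at 48 h, against 1.26 and 2.08 RPKM in control cells (ratio 6.6, log2 fold change 1.93, SE 0.52, limma adjusted p = 0.0167). Irf9, the DNA-binding subunit that joins Stat2, had 13.8, 11.5 and 7.92 RPKM in loaded cells, against 4.61 and 7.69 RPKM in control cells (ratio 1.8, adjusted p = 0.0466). Replicate 3 of the loaded cells exceeded replicate 3 of the controls only slightly, and Irf9 was called under 8 of the 23 alternatives. Stat2 had 8.56, 6.13 and 4.8 RPKM in loaded cells, against 2.94 and 4.02 RPKM in control cells (ratio 1.87, log2 fold change 0.72, SE 0.21, limma adjusted p = 0.0229). At 24 h its direction was the other one, with 2.19, 2.43 and 2.42 RPKM in loaded cells and 2.82, 4.82 and 2.78 RPKM in control cells, groups that did not overlap but did not pass the test (adjusted p = 0.301). Irf1, a factor downstream of interferon gamma, did not pass at 48 h (1.34-fold, adjusted p = 0.211).

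Among the sensors, 2 of the 3 RNA helicases of the RIG-I family rose at 48 h. Dhx58 (LGP2), which modulates the other helicases, had 4.08, 1.79 and 1.22 RPKM in loaded cells at 48 h, against 0.245 and 0.691 RPKM in control cells (ratio 5.05, log2 fold change 1.12, SE 0.27, limma adjusted p = 0.0099). Ddx58 (RIG-I), which recognises short RNA with a triphosphate end, had 4.42, 3.2 and 2.41 RPKM in loaded cells and 1.56 and 2.18 RPKM in control cells (ratio 1.79, adjusted p = 0.0309). The groups were separate for both genes. Ifih1 (MDA5), which binds long double-stranded RNA, overlapped between groups, at a ratio of 1.75 and an adjusted p of 0.0896. Adar, which edits adenosine in double-stranded RNA and so keeps the sensors quiet, rose 1.35-fold (adjusted p = 0.00898). Zbp1, a sensor of left-handed nucleic acid, had 8 tags in all loaded libraries at 48 h and 0 in the controls.

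Most members of the 2′-5′ oligoadenylate synthetase family, which here includes the synthetase-like genes Oasl1 and Oasl2, were hardly detected. Oasl2 was the exception and rose, with 2.66, 0.577 and 0.429 RPKM in loaded cells at 48 h, against 0 and 0.123 RPKM in control cells (ratio 19.8, log2 fold change 0.93, SE 0.29, limma adjusted p = 0.0343). That ratio, the largest of any member tested, rests on 7 control tags and on replicate 1, which held 211 of the 275 tags of the loaded cells. Oasl1, Oas2 and Oas1a had 19, 16 and 5 tags over the loaded libraries at 48 h, and 0, 0 and 1 tags over the control libraries. Of the 2 Mx genes in the set, Mx2 rose 11.4-fold at 48 h. It had 0.989, 0.408 and 0.242 RPKM in loaded cells and 0.0309 and 0.0653 RPKM in control cells (limma adjusted p = 0.0123). Mx1 had 7 tags in the loaded and 0 in the control libraries at 48 h.

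Of the 4 poly-ADP-ribose polymerases and ubiquitin ligases in the set, 3 rose at 48 h. Parp9, Parp14 and the ligase Trim25, which ubiquitinates RIG-I, rose 2.21-fold, 2.58-fold and 1.88-fold (adjusted p = 0.0199, 0.0392 and 0.0221, limma). Of the 23 alternatives, 19 called Parp9, 9 called Parp14 and 17 called Trim25. Dtx3l, the ligase that pairs with Parp9, did not pass (1.64-fold, adjusted p = 0.181), and its replicate 3 in loaded cells lay below both controls. The gene bodies of Parp9 and Dtx3l overlap on opposite strands, and whether strand was used in counting is not given in the sources used here, so that tags of the shared stretch cannot be told apart. The rows of B2m, Adar and Gbp2 also overlap another gene each (Patl2, Chrnb2 and Mir6381).

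None of the antigen presentation genes in the set passed the test at 48 h, and 2 of the 5 were too low to test. Tap1, Tap2, Psmb8 and Psmb9 lie side by side on chromosome 17, in the major histocompatibility complex. Tap1, a subunit of the transporter that moves peptides into the endoplasmic reticulum, had 6.52, 4.39 and 3.78 RPKM in loaded cells at 48 h, against 4.51 and 4.73 RPKM in control cells (log2 fold change 0.04, SE 0.16, limma adjusted p = 0.875). Replicate 1 of the loaded cells was above the controls and the other replicates were below them. Tap2, the partner subunit, overlapped likewise (ratio 1.27, adjusted p = 0.458). B2m, the light chain of class I molecules, had 33.8, 31.2 and 36.7 RPKM in loaded cells and 34.8 and 36.1 RPKM in control cells (log2 fold change -0.06, SE 0.17, adjusted p = 0.823). Psmb8, an immunoproteasome subunit, had 13, 0 and 0 tags in replicates 1 to 3 of the loaded cells at 48 h, against 0 and 2 tags in the controls. Psmb9, another such subunit, had 12 tags in the loaded libraries and 6 in the controls.

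B2m also shows a limit of the table. At most 1 tag was kept per position, and B2m, with 858 exonic bases, held 527 to 960 tags in every library, or 0.614 to 1.12 tags per exonic base. In control replicate 1 at 0 h, the library with the fewest tags in all (2726784), B2m was at 39.6 RPKM, the highest of the 14 libraries. A rise of a gene so fully covered would be understated. Of the other members, Bst2 reached 0.759, Ifit3 0.417 and Isg15 0.396 tags per exonic base.

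**Figure D3:**
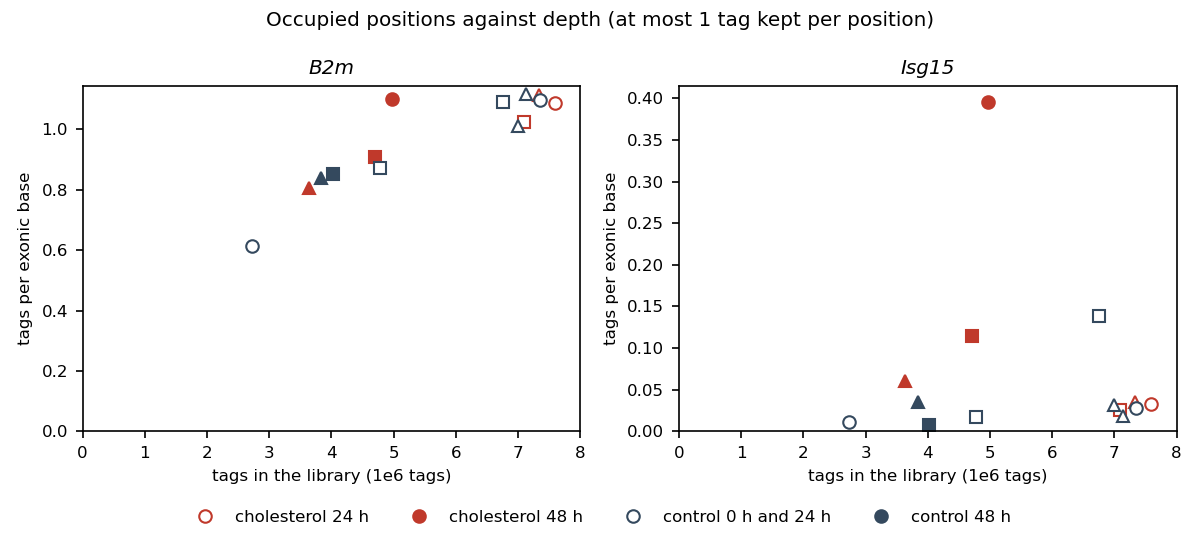
Tags per exonic base of B2m (left) and Isg15 (right) against the tags of the library total, with at most 1 tag counted per position. B2m climbs with depth to about 1.12 in libraries of every treatment, whereas the 3 loaded libraries at 48 h (filled red) are spread over Isg15 values up to 0.396 at similar depths.

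In all 5 groups the highest and the lowest culture differed more for the median member than for the median gene tested. Replicate 1 of the loaded cells at 48 h was the highest of all 14 libraries for 26 of the 29 members, where 15.9% of all genes tested had their highest value there. The order replicate 1 over 2 over 3 held for 25 of the 29 (17.8% of all genes). Rtp4, Mx2 and Oasl2, which passed the tag minimum only through the loaded libraries at 48 h, are in both counts. Their places there are not independent of the filter. The median level of the members, as log2 of the value over the mean of the 14 libraries (0.1 added to both), was 1.2, 0.72 and 0.25 in replicates 1 to 3 of the loaded cells at 48 h. It was -0.44 and -0.06 in replicates 2 and 3 of the control cells at 48 h, and 27 of the 29 members were higher in replicate 3 (50.1% of all genes). Between the highest and the lowest culture, with 0.1 RPKM added to each value, the median member differed 1.95-fold in loaded cells and 1.33-fold in control cells at 48 h. The median gene differed 1.18-fold and 1.08-fold. The added 0.1 makes these folds smaller for genes of low RPKM.

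Single libraries also set the size of several ratios at 48 h. Without replicate 1 of the loaded cells the ratio was 5.81 for Ifit1, 3.61 for Isg15, 3.6 for Irf7, 6.7 for Rtp4, 3.22 for Dhx58, 8.15 for Oasl2, 6.75 for Mx2 and 2.74 for Gbp3. Without control replicate 3 it was 15.9 for Ifit1, 19.4 for Isg15, 9.64 for Dhx58, 17.7 for Mx2 and 15.5 for Gbp3, and without control replicate 2 it was 4.1 for Isg15, 9.91 for Oasl2 and 2.78 for Gbp3. For the other 12 members called higher at 48 h, no library left out moved the ratio by over 1.5 times.

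At 24 h the loaded cultures were alike, with median levels of -0.53, -0.45 and -0.54. Control cells at 24 h had -0.44, 0.2 and -0.49, and their replicate 2 was the highest of the group for 27 of 29 members (35.8% of all genes). The median log2 fold change at 24 h was -0.13 with this library and -0.03 without it. Without it, the difference between 48 h and 24 h was called for 2 members, Ifit1 and Ifit3, in place of 7. That count ranged from 1 to 16 when each library was left out in turn, at 1 without replicate 2 of the controls at 48 h or replicate 3 of the loaded cells at 24 h, and at 16 without replicate 3 of the loaded cells at 48 h. Ifit3 was called each time. Of the 12443 genes tested, the difference was called higher for 288 in the main fit and for 171 without replicate 2 of the controls at 24 h. It was called for 170 and 172 in the fits that gave 1 member, and for 291 in the fit that gave 16.

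**Figure D4:**
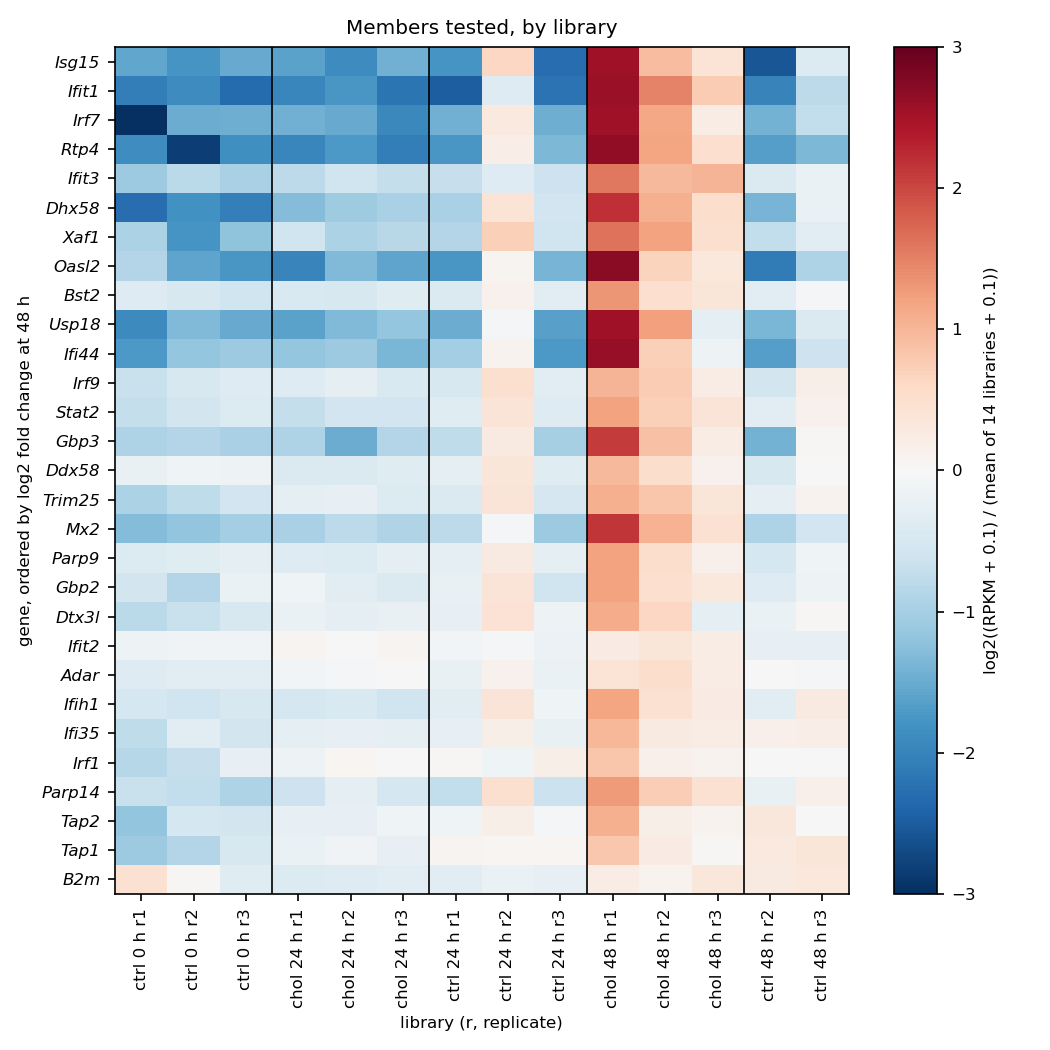
Level of the 29 members tested in each library, as log2 of normalized RPKM over the mean of the 14 libraries (0.1 added to both), red above and blue below that mean. Columns run in order of time with loaded cells left of controls at 24 h and 48 h, and rows run by log2 fold change at 48 h. Replicate 1 of the loaded cells at 48 h forms the darkest red column, and replicate 2 of the control cells at 24 h is redder than its neighbours.

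Few members were called with time in control medium, though most had estimates above 0. At 24 h against 0 h only Tap1 was called higher (4.47% of all genes), at 3.92, 3.84 and 3.84 RPKM at 24 h and 1.68, 1.95 and 2.61 RPKM at 0 h (log2 fold change 0.67, SE 0.14, limma adjusted p = 0.0116). At 48 h against 0 h, 3 members were called higher (7.78% of all genes), namely Tap1 (0.88, adjusted p = 0.00242), Ifi35 (0.58, adjusted p = 0.0391) and Ifit3 (0.56, adjusted p = 0.0262), each value a log2 fold change. The count called lower was 0 at 24 h (3.86% of all genes) and 0 at 48 h (8.24%). At an unadjusted p under 0.05 in limma, 9 members were higher at 24 h and 7 at 48 h, and 0 were lower. Log2 fold changes were above 0 for 28 of the 29 members at 24 h and 26 at 48 h. Their median was 0.26 at both times, and that of all genes tested was near 0. With each library left out in turn, the members' median ranged from 0.1 to 0.4 at 24 h and from 0.12 to 0.39 at 48 h. The Tap1 call at 24 h was lost without replicate 1 of the control cells at 0 h, and the count of 1 became 2 without replicate 3 of the control cells at 0 h and 6 without replicate 1 of the loaded cells at 48 h, which shares in the estimate of the spread. Tap1 was called at 48 h whichever library was left out. Neither Ifi35 nor Ifit3 was called without control replicate 1 or 3 at 0 h or without either control library at 48 h, and Ifi35 was also not called when any 1 of the loaded libraries at 24 h or control replicate 3 at 24 h was left out. The count of 3 became 1 without control replicate 3 at 0 h or without either control library at 48 h, and 5 members were called without replicate 1 or without replicate 3 of the loaded cells at 48 h. All genes called higher at 48 h against 0 h numbered 968 in the main fit. They numbered 888 without control replicate 3 at 0 h, and 606 and 510 without control replicates 2 and 3 at 48 h. Without replicates 1 and 3 of the loaded cells at 48 h they numbered 1238 and 955. At 24 h against 0 h they numbered 556 in the main fit, and 328 and 958 without control replicates 1 and 3 at 0 h. Without replicate 1 of the loaded cells at 48 h that number was 792.

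Loaded cells at 48 h set against loaded cells at 24 h had 26 members higher (12.5% of all genes) and 0 lower (11.5%). Depth moved with this comparison: the loaded libraries held 3633885 to 4968417 tags at 48 h and 7094066 to 7590825 tags at 24 h. Of 14 constitutive proteasome genes, 9 were called higher in the same comparison and 0 in the comparison with controls at 48 h. B2m was also among the 26. The part of depth in this count was not tested.

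Upstream of the members, the ligands were near the limit of detection. Of 14 genes for interferons and their receptors, 6 were at 0 in every library and 5 were tested, with 0 called higher or lower at 24 h or 48 h. Interferon beta (Ifnb1) had 1 tag in all, in replicate 3 of the control cells at 48 h, which does not exclude low or earlier expression. The receptor chains Ifnar1 (1.09-fold) and Ifnar2 (1.03-fold) did not pass at 48 h (adjusted p = 0.277 and 0.837, limma).

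Among 16 tested genes of signal transduction, 2 rose and 2 fell at 48 h, shares near the 12.0% and 13.0% of all genes tested, and their median log2 fold change was 0. Those that rose were Tyk2 (1.42-fold), a kinase of the receptor, and Irf2bp2 (1.33-fold), a corepressor partner of Irf2. Stat3 (0.842 of control) and the phosphatase Ptpn1 (0.818 of control) fell. Irf3, which induces interferon beta, and Socs1, a feedback inhibitor, did not pass (0.924-fold and 1.73-fold, adjusted p = 0.377 and 0.105).

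Of 17 nucleic acid sensing genes tested, 5 were higher and 3 lower at 48 h, beside 12.0% higher and 13.0% lower among all genes, at a median log2 fold change of 0.09. The adaptor Ticam1 (TRIF) rose 1.4-fold, the endotoxin receptor Tlr4 1.32-fold and the adaptor Myd88 1.27-fold. Tmem173 (STING), the adaptor of cytosolic DNA sensing, fell to 0.752 of control (adjusted p = 0.0182).

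Of 47 other interferon-stimulated genes tested, 13 were higher and 2 lower at 48 h (12.0% and 13.0% of all genes), and their log2 fold changes had a median of 0.19. Ccl5, a chemokine for T cells and monocytes, had 2.12, 1.91 and 1.45 RPKM in loaded cells, against 0 and 0.285 RPKM in control cells (ratio 12.8, log2 fold change 1.31, SE 0.14, limma adjusted p = 3.53e-05). Its loaded cultures were closer to each other than those of the median member. Without control replicate 2 its ratio was 6.4, and without control replicate 3 the remaining control was at 0. Apol9a, with 4.83, 1.79 and 0.908 RPKM in loaded cells and 0.212 and 0.411 RPKM in control cells, also rose (ratio 8.05, and 4.32 without replicate 1 of the loaded cells). So did Apol9b (ratio 5.38, 3.06 without that library and 9.43 without control replicate 3) and the GTPase Irgm2 (ratio 3.37, and 5.08 without control replicate 3). Apol9a and Apol9b are near-identical and may share reads.

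Of 19 other antigen presentation genes tested, 4 were higher and 0 lower at 48 h (12.0% and 13.0% of all genes), namely the class I heavy chains H2-K1, H2-D1, H2-T23 and H2-M3. H2-K1 had 24.9, 19.4 and 19.8 RPKM in loaded cells, against 14.3 and 14.1 RPKM in control cells (ratio 1.51, log2 fold change 0.55, SE 0.09, limma adjusted p = 0.0011). H2-D1 rose 1.28-fold (adjusted p = 0.0424), H2-T23 1.65-fold and H2-M3, which presents bacterial formyl peptides, 2.41-fold. Sequences of these chains are alike, and reads may be divided between them. Nlrc5, the transactivator of class I genes, was below the tag minimum.

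Markers of other cells were compared beside these results. Smooth muscle markers were detected in every library, with their 9 genes summing to 177 to 204 RPKM in loaded and 230 to 232 RPKM in control cells at 48 h. Of the 9, 3 were called lower at 48 h and 2 at 24 h, and 0 higher. The contractile myosin Myh11 was among those lower at both times. Of 13 leukocyte markers, 4 were at 0 in every library and the pan-leukocyte marker Ptprc was at 0 in all libraries at 48 h. Of the 4 that were tested, Cd68 (2.2-fold) and Csf1r (1.53-fold) were called higher at 48 h and 0 lower. The sum of the leukocyte list was 9.31, 8.61 and 8.87 RPKM in replicates 1 to 3 of loaded cells and 6.45 and 6.64 RPKM in control cells at 48 h. At 48 h the 7 fibroblast markers summed to 95.1 to 116 RPKM in loaded and 110 to 112 RPKM in control cells. Of the 4 tested, 2 were called lower and 0 higher. The 6 endothelial markers summed to 0.303 to 0.376 RPKM in loaded and 0.491 to 0.529 RPKM in control cells, with 2 called lower and 0 higher. Among all genes tested, 12.0% were called higher and 13.0% lower at 48 h, and 2.56% higher and 2.95% lower at 24 h. At 24 h, 1 leukocyte marker was called higher and 0 lower, and 1 endothelial marker higher and 1 lower. Fibroblast markers had 0 calls at 24 h. The part of these cells in the results was not tested.

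H3K27ac regions lay at the start of most members in both treatments. A region within 1 kb of the start was listed for 27 of the 38 members in loaded cells at 24 h and 26 at 48 h, and for 27, 30 and 28 in control cells at 0, 24 and 48 h. Among the members tested the counts were 25 and 24 of 29 in loaded cells at 24 and 48 h (87.5% and 83.4% of all genes tested) and 23, 27 and 26 in control cells at 0, 24 and 48 h (80.6%, 87.2% and 85.4%). In all 5 lists 22 members had a region, among them Isg15, Irf7, Irf9, Stat2, Bst2 and B2m. Oasl2, Oas1a, Oas2, Mx1 and Psmb8 had a region in none. Ifit1 had one in control cells at 24 h alone, Usp18 had one in the 3 control lists and in neither list of loaded cells, and Ifit3, Gbp2 and Rtp4 lacked one in control cells at 0 h alone. With 1 library per condition these lists have no replicate check, and a missing region can also be one under the 4-fold threshold over input. Folds over input in the list at 0 h reached far higher values than in the others. The region at Parp9 had 204 at 0 h, against 8.36 and 6.35 in control cells at 24 and 48 h. Presence at 0 h is therefore not directly comparable with the other lists.

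Set beside the promoter letters, 7 of the 9 tested members with GAAANNGAAA were called higher at 48 h and 8 of the 13 tested members with a promoter entry and no match were. The 2 with a match that did not pass were B2m and Ifih1. Irf7, Irf9, Ifit2, Oasl2 and Xaf1 were called without a match in these windows.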

How the data were processed

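Polyadenylated RNA of 14 cultures was sequenced, and STAR was used by the authors for alignment to mm10. HOMER then counted tags in each RefSeq gene body, at most 1 per position, and the authors deposited RPKM values whose length includes introns. Versions of STAR and HOMER are not given in the sources used here. Control replicate 1 at 48 h was discarded by the study and is not analysed here. The study also left control replicate 1 at 0 h out of its comparison with in vivo data, because it did not cluster with its replicates. That library is kept here. The H3K27ac lists, from Bowtie2 alignments and HOMER's peak caller, hold the authors' deposited signal values (scaled tags per region) and the fold or ratio over input, at least 4. Columns of the authors' regional p-values were not used.

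Tags were recovered from the RPKM values, 100% of those tested being whole within 0.25 tag, with totals of 2726784 to 7590825 per library. Of 35756 rows, 1045 named no gene and were left out. Values were rescaled by the median of ratios (factors 0.904 to 1.057). limma 3.58.1 in R 4.3.3 was fitted on log2(normalized RPKM + 1) for the genes with a mean of at least 10 tags, with 1 mean per group, all 14 libraries sharing 1 spread, eBayes (trend), and a Benjamini-Hochberg threshold of 0.05. Fold changes on this scale understate those of low genes. Promoters came from RefSeq's GRCm38.p6, the same assembly as mm10. Ratios in the text are of mean normalized RPKM. Alternatives were a pseudocount of 0.1, another filter (over 70 tags in at least 1 library) and no filter, RPKM as deposited, voom on tags, a replicate block, only the groups compared, and each library left out, plus 2 chosen after seeing the data. The fit was tested on simulated data.

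Members, lists and tests were chosen with earlier results of these data known. Values per library are given for called members with the 8 largest changes at 48 h and at 24 h and for Isg15, Ifit1, Irf7, Stat2, B2m, Tap1 and Psmb8, and for further genes chosen after their values were seen (Ifit2, Usp18, Mx2, Gbp3, Ccl5, Apol9a and H2-K1). Of each other list up to 4 called genes are named.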

Additional observations from a re-analysis of the deposited data

Results flagged for a closer look

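Between 48 h and 24 h the cholesterol effects of 7 members differed by more than their error in limma, tested as a contrast of both log2 fold changes; so did those of 4 of the other genes named. For the members the difference in log2 fold change, 48 h minus 24 h, was 2.53 for Ifit1 (adjusted p = 0.0217), 1.96 for Rtp4 (0.034), 1.53 for Ifit3 (0.00152), 1.43 for Dhx58 (0.0426), 1.33 for Xaf1 (0.0388), 1.11 for Stat2 (0.038) and 0.29 for Ifit2 (0.0287). In 6 of these 7 the estimate at 24 h was below 0, and in Ifit2 it was 0.11. For the other genes it was 1.45 for Ccl5 (adjusted p = 0.00124), 0.7 for H2-K1 (0.00716), 0.37 for Irf2bp2 (0.0349) and 0.35 for Ticam1 (0.0265). Dixon's test for a single outlying library needs 4 libraries and was not run on these groups of 2 or 3.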

How the results depend on the processing

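The count of 20 members higher at 48 h became 11 with no filter, 13 with a replicate block, 4 with only the groups compared and 6 with array weights, and ranged from 5 to 24 over the libraries left out. The count with no filter was out of all 38 members. All genes called higher at 48 h numbered 1497 of 12443 in the main fit and 1369 of 18896 with no filter. They numbered 1357 with the block, 582 with only the groups compared and 1424 with array weights. The 7 members of the difference became 2 with no filter, 3 with RPKM as deposited, 15 with voom, 2 with the block and 3 with only the groups compared, and ranged from 1 to 16. Without replicates 1, 2 and 3 of the loaded cells at 24 h this count was 2, 2 and 1, without replicate 2 of the loaded cells at 48 h it was 4, without replicate 2 of the control cells at 0 h 4, without replicates 2 and 3 of the control cells at 24 h 2 and 4, and without replicates 2 and 3 of the control cells at 48 h 1 and 2. All genes called higher in the difference numbered 288 in the main fit. They numbered 241 of 18896 with no filter, 235 with RPKM as deposited, 314 with voom, 212 with the block and 330 with only the groups compared. Over the libraries left out that were just named, in that order, they numbered 189, 178, 172, 272, 242, 171, 183, 170 and 175. At 24 h array weights called 1 member higher and 1 lower, and only the groups compared called 1 lower, where the main count was 0. Leaving out a library gave 0 each time. Of all genes, array weights called 1297 higher and 1468 lower at 24 h, and only the groups compared called 1153 lower. The main fit called 318 higher and 367 lower. Control cells at 24 h against 0 h had 1 member higher, 2 with a pseudocount of 0.1 or with voom, 3 without both high libraries (replicate 1 of loaded cells at 48 h and replicate 2 of controls at 24 h), 7 with array weights, and 0 to 6 over the libraries left out, which also gave 0 to 1 lower. All genes called higher there numbered 556 in the main fit, 571 with that pseudocount and 668 with voom. They numbered 437 without both high libraries and 1703 with array weights. Control cells at 48 h against 0 h had 3 higher, 1 with no filter, with RPKM as deposited or with the block, 5 with voom, 10 without both high libraries, 5 with array weights, and 1 to 5 over the libraries left out. All genes called higher there numbered 968 in the main fit, 920 with no filter, 736 with RPKM as deposited and 802 with the block. They numbered 876 with voom, 1124 without both high libraries and 1306 with array weights. Loaded cells at 48 h against 24 h had 20 to 27 members higher over the libraries left out, where all genes called higher numbered 768 to 2098. A fold over input of at least 8 left 11 and 3 members with a region in loaded cells at 24 and 48 h, and 11 and 4 in control cells at 24 and 48 h. In control cells at 0 h the count did not move by over 1.5 times. The cause of these shifts was not tested. No member changed direction in a call. Array weights and the loss of both high libraries were chosen after seeing the data.

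Between samples with the same replicate number, deviations from the group mean were weakly correlated (26 pairs, r from -0.279 to 0.15, median -0.0278). Between samples with different numbers r ran from -0.184 to 0.264 (52 pairs, median 0.00382). Deviations cancel out within such small groups, so these values cannot decide whether the numbers pair the cultures. The 9 members below the tag minimum were not tested, and the cap of 1 tag per position limits B2m.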
